A study of Homo sapiens with 90 samples.

Results

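The insulin-like growth factor (IGF) axis was described here through 10 genes of the 53893 gene IDs in the expression table: the receptors IGF1R and INSR, the adaptors IRS1 and IRS2, the ligand IGF2 with its imprinted neighbour H19, and the binding proteins IGFBP3, IGFBP4, IGFBP5 and IGFBP6. The members were chosen by their measured transcript levels in CPM, counts scaled to a fixed library total, in these same cell lines and arms, so their levels and changes are a description and carry no test. All 10 symbols were matched to an ID of the table.

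The series holds 90 RNA-seq libraries from 6 human cancer cell lines, all established lines, with 5 arms of 3 libraries per line. The labels give A375 as melanoma, A549, H3122 and PC9 as lung adenocarcinoma, N87 as gastric carcinoma and RT112 as urinary bladder carcinoma, all grown in medium with serum. One of the 15 A375 libraries, replicate 4 of vemurafenib at 48 h, carries the tissue label lung in place of skin. Each line had a DMSO control (0.1%), its targeted drug for 48 h, the same drug for 7 days, THZ1 alone for 48 h, and the targeted drug with THZ1 for 48 h, called the combination here. THZ1 is a covalent inhibitor of CDK7, a kinase that acts in transcription.

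A375 received the BRAF inhibitor vemurafenib at 1 uM and THZ1 at 50 nM. In A549 the drugs were GSK1120212 (trametinib, against MEK) at 200 nM and THZ1 at 150 nM. H3122 received the ALK and MET inhibitor crizotinib at 250 nM and THZ1 at 50 nM. N87 received the EGFR and HER2 inhibitor lapatinib at 100 nM and THZ1 at 25 nM. In PC9 they were erlotinib, against EGFR, at 1 uM and THZ1 at 100 nM. RT112 received the FGFR inhibitor BGJ398 at 1 uM and THZ1 at 100 nM. The targeted drug differs with the line, so the 2 cannot be told apart. THZ1 was given to A375 and H3122 at the same dose, as it was to PC9 and RT112, and at another dose in the other 2 lines. The 7-day arm has no 7-day vehicle among the groups used here and was set against the 48 h drug arm.

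IGF1 and IGF2 are secreted growth factors that bind the receptor tyrosine kinase IGF1R, and IGF2 also binds an isoform of the insulin receptor INSR. The activated receptors phosphorylate the adaptors IRS1 and IRS2, which recruit PI3-kinase and so activate AKT, mTOR and inhibition of the FOXO factors. Binding proteins hold most of the secreted ligand and can block or prolong its action. H19 is a long non-coding RNA next to IGF2 on chromosome 11, where the copies of the gene pair inherited from mother and father are used in opposite ways.

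The sum of expected counts in a library lay between 5.64 and 14.36 M, and each of the 90 libraries correlated best with another library of its own group. Replicate 1 of the RT112 groups and replicate 1 of H3122 at 7 days were still taken as standing apart. They were kept, and a refit without them is given at the end. Whether the libraries of a group come from separate cultures is not stated in the labels, so every SD and standard error below is a spread between libraries that may be technical. Of 7 melanocyte markers, 4 were at or above a median of 1 CPM in A375 and TYR was at 0. Of 7 lung epithelial markers, NKX2-1, NAPSA and SFTA3 reached 1 CPM in H3122, only SFTPD did in A549 and none did in PC9. In N87 5 of 7 gastric markers were at 0 and 1 reached 1 CPM, while 4 reached it in RT112. Of 7 urothelial markers, 5 reached 1 CPM both in RT112, where the list summed to between 1020 and 2740 CPM, and in N87 (129 to 303 CPM). Of 5 blood markers, CD14 in PC9 was the only one at a median of 1 CPM or more in any line. Of 4 liver markers, ALB, APOA1 and FGB reached 1 CPM in A549, where the summed level of the list ran from 75.4 to 652 CPM, while in the other 5 lines none did. Of 7 fibroblast and endothelial markers, 6 were found, and 1 to 3 of them reached 1 CPM in each line. Marker lists also moved with the targeted drug at 48 h, in both directions. In A549 the summed liver list was at 122 to 123 CPM in DMSO and 554 to 652 CPM after trametinib, and the fibroblast and endothelial list at 15.7 to 18.5 CPM and 90.1 to 95.5 CPM. The lung list in H3122 was at 254 to 265 CPM in DMSO and 741 to 817 CPM after crizotinib, the urothelial list in PC9 at 164 to 188 CPM and 438 to 464 CPM after erlotinib, and the melanocyte list in A375 at 1020 to 1070 CPM and 1720 to 1830 CPM after vemurafenib. The gastric list was lower after the drug. It was at 193 to 216 CPM in H3122 DMSO and 14.7 to 24.6 CPM after crizotinib. In A549 it was at 109 to 120 CPM and 48.8 to 53.3 CPM after trametinib, and in RT112 at 42.1 to 48.1 CPM and 8.82 to 14.1 CPM after BGJ398. The part of these lists in the members' changes at 48 h was not tested. In these bulk samples, fewer cells of a kind and less RNA per cell cannot be told apart.

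The heat map of log2 changes shows the 4 comparisons side by side. H19 and IGFBP5 held the values farthest from 0. The receptors and IRS1 stayed within 1 log2 unit in every cell but IGF1R in A375 under vemurafenib, with and without THZ1, and IRS1 in the RT112 combination. The comparisons share groups: the 48 h drug arm enters 3 of them and DMSO enters 2.

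**Figure D1:**
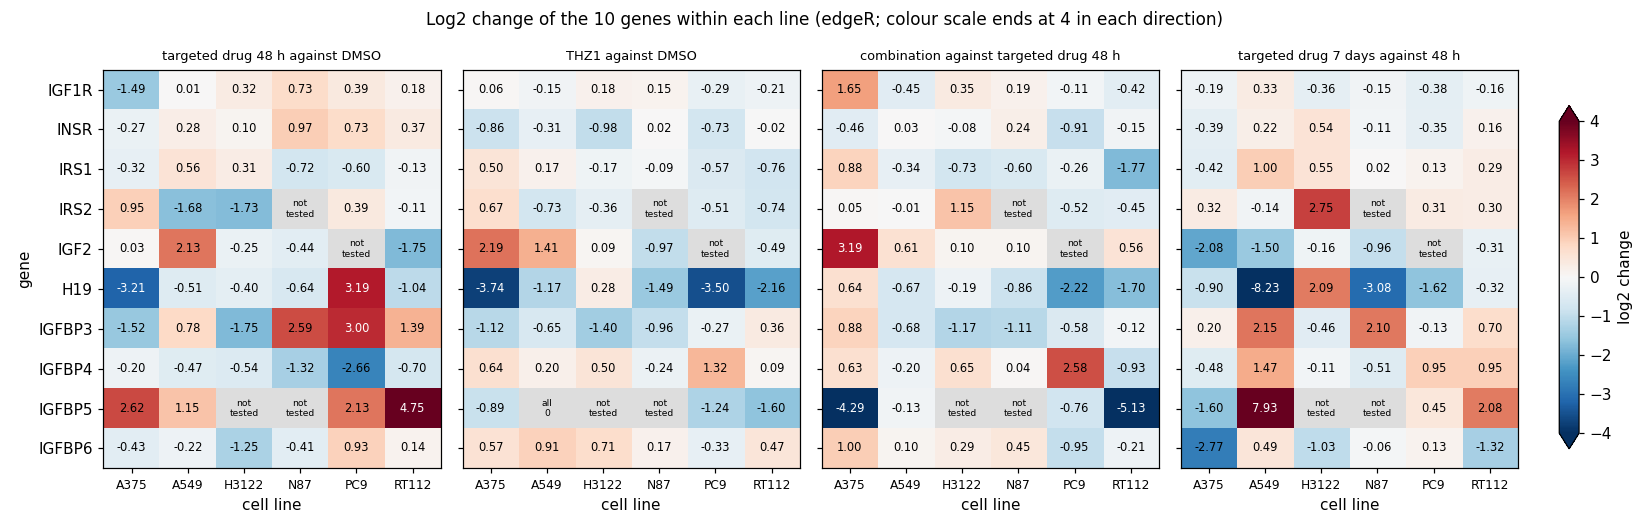
Log2 change of each of the 10 genes (rows) in each of the 6 lines (columns) for the 4 comparisons (panels), from the within-line edgeR fits, with red for higher and blue for lower. Grey cells hold genes under the count filter of that line, or the IGFBP5 value of A549 under THZ1, where all 3 libraries were at 0. H19 in A549 at 7 days (-8.23) and IGFBP5 in the same comparison (7.93) have the largest values. IGFBP5 passed the count filter of A549 only through its 7-day arm.

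IGF1R is the main receptor of the axis for growth signals, and its transcript was found in every library. In DMSO the order of the lines by IGF1R level was A549 (445 ± 1.72 CPM, mean ± SD, n = 3), A375 (279 ± 9.19), RT112 (173 ± 7.5), H3122 (169 ± 6.03), PC9 (146 ± 6.25) and N87 (54.3 ± 3.73). Of these neighbours only RT112 and H3122 had overlapping libraries.

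A375 stood apart under its targeted drug. IGF1R was at 268, 283 and 285 CPM in the 3 DMSO libraries of A375 and at 98.6, 95.7 and 103 CPM after 48 h of vemurafenib, a log2 change of -1.49 ± 0.055 (SE). With THZ1 added to vemurafenib, the libraries were at 305, 320.1 and 312 CPM, 1.65 ± 0.054 on the log2 scale above vemurafenib alone. All 3 combination libraries thus lay above every DMSO library of the line. THZ1 alone gave 300.2, 277 and 295 CPM, which overlapped DMSO, and 7 days of vemurafenib gave 79.9, 90.2 and 91.7 CPM, below every 48 h library.

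Without the A375 library that carries the other tissue label, the changes after 48 h of vemurafenib were -1.52 for IGF1R (-1.49 with it), -3.49 for H19 (-3.21), -1.46 for IGFBP3 (-1.52), 2.62 for IGFBP5 (2.62), 0.97 for IRS2 (0.95) and -0.17 for INSR (-0.27). Over the 30 changes of the 10 members that use that group, none turned its sign and none moved by more than 0.28.

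In the other lines IGF1R was at the same level or higher after the targeted drug. N87 libraries went from 52.3, 51.9 and 58.6 CPM in DMSO to 91.8, 84.6 and 93.1 CPM after lapatinib, a log2 change of 0.73 ± 0.071. The changes were 0.39 ± 0.038 in PC9, 0.32 ± 0.057 in H3122 and 0.18 ± 0.053 in RT112. In A549 the change was 0.01 ± 0.037, and its sign turned without TMM scaling and without the count filter. Both H3122 and N87 kept the higher level in the combination, which stood 0.35 ± 0.056 and 0.19 ± 0.067 above the drug alone, whereas A549 and RT112 stood -0.45 ± 0.038 and -0.42 ± 0.054 from the drug. At 7 days against 48 h, A549 alone had a higher IGF1R level, 573, 545 and 578 CPM against 449, 448 and 449.5 CPM, and the other 5 lines had log2 values between -0.38 and -0.15.

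INSR, the insulin receptor, was found in every library. Its DMSO levels ran from 54.1 ± 1.51 CPM in RT112 through H3122 (44.8 ± 4.81), A375 (32 ± 3.6), A549 (24.1 ± 1.55) and N87 (22.6 ± 0.445) to 15.5 ± 2.13 CPM in PC9. No neighbours in that order had overlapping libraries. Divided by exon length, the ratio of the IGF1R level to the INSR level was 13.7 ± 0.804 in A549 DMSO and 1.79 ± 0.152 in N87 DMSO, the highest and the lowest of the lines. In A375 that ratio was 6.53 ± 0.641 in DMSO and 2.74 ± 0.396 under vemurafenib.

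The targeted drug at 48 h gave higher INSR in N87, from 23.1, 22.5 and 22.2 CPM to 41.1, 45.7 and 46.2 CPM, a log2 change of 0.97 ± 0.094. PC9 was next, from 13.4, 15.5 and 17.7 CPM to 25.5, 26.5 and 25.5 CPM with a change of 0.73 ± 0.093. RT112 (0.37 ± 0.047) and A549 (0.28 ± 0.077) were higher by less, the libraries of H3122 overlapped, and A375 stood at -0.27 ± 0.12. THZ1 alone was accompanied by lower INSR in 4 lines without overlap of libraries: H3122 (-0.98 ± 0.10), A375 (-0.86 ± 0.13), PC9 (-0.73 ± 0.11) and A549 (-0.31 ± 0.082). In N87 and RT112 the THZ1 and DMSO libraries of INSR overlapped, at log2 values of 0.02 ± 0.10 and -0.02 ± 0.048, and the sign of the second turned without TMM scaling.

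The combination kept the INSR level of the drug alone in H3122 and A549, where libraries overlapped. PC9 was different: the combination stood at 14.7, 12.1 and 14.6 CPM, -0.91 ± 0.096 from erlotinib alone and overlapping DMSO. N87 went the other way, to 56.5, 51 and 49.9 CPM, 0.24 ± 0.084 above lapatinib. H3122 had its highest INSR at 7 days of crizotinib, 77.5, 63.2 and 68.5 CPM against 47.6, 48 and 48.6 CPM at 48 h, a change of 0.54 ± 0.088.

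**Figure D2:**
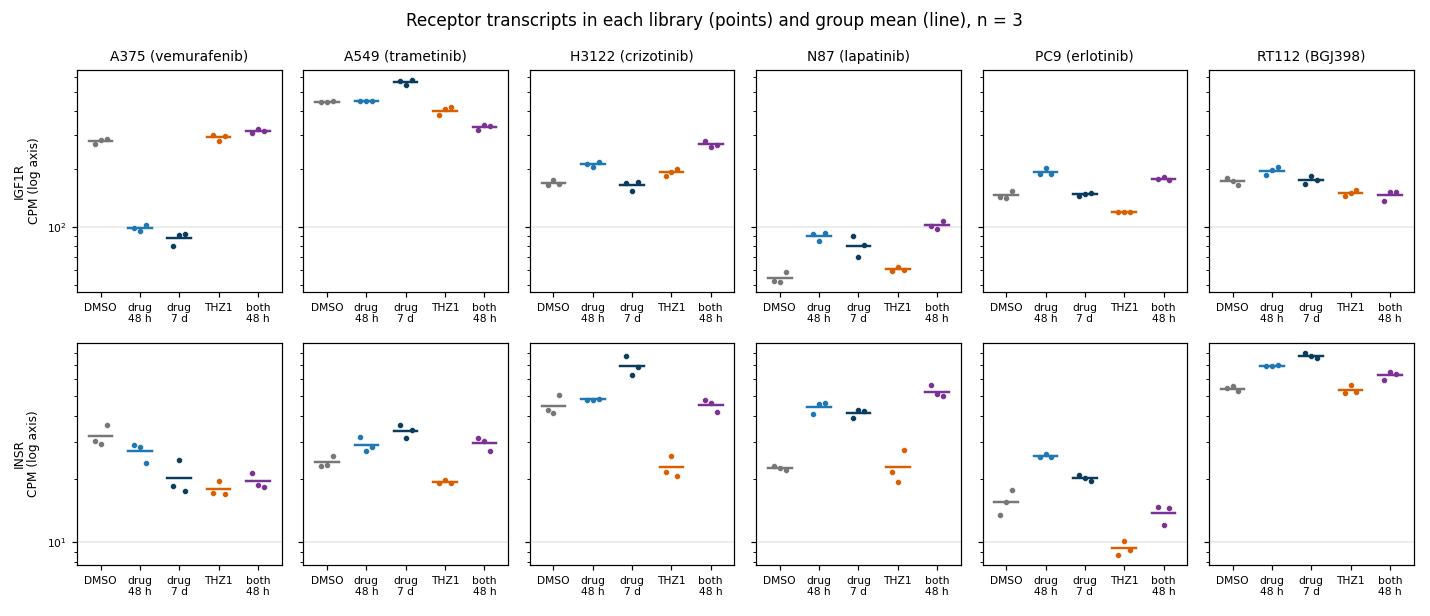
CPM of IGF1R (top) and INSR (bottom) on a log axis in each library (points) and as the mean of the 3 libraries (line), for 5 arms in each of 6 lines. IGF1R in A375 sits near 99 CPM after 48 h of vemurafenib and above 300 CPM with THZ1 added. INSR in N87 and PC9 sits higher after the targeted drug than in DMSO.

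IRS1 and IRS2 dock on the activated receptors and link them to PI3-kinase. IRS1 was present in all lines, from 160.3 ± 9.66 CPM in PC9 DMSO to 38.9 ± 2.58 CPM in A375 DMSO. Between these lay N87 (159.6 ± 0.441), A549 (109 ± 5.03), RT112 (102 ± 13.6) and H3122 (77.7 ± 1.28). PC9 and N87 had overlapping libraries, as had A549 and RT112.

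IRS2 levels spread far wider. DMSO levels were 609 ± 17.4 CPM in A375, 280.3 ± 11 in A549, 166 ± 31.4 in PC9, 83.2 ± 9.31 in RT112 and 45.1 ± 1.48 in H3122, with no overlap between neighbours. In N87 DMSO the 3 libraries were at 0, 0.103 and 0.0969 CPM, and only the 7-day arm of that line had a library above 1 CPM. Divided by exon length, the ratio of the IRS1 level to the IRS2 level was 0.0537 ± 0.00502 in A375 DMSO and 1.44 ± 0.0241 in H3122 DMSO, so A375 held mostly IRS2 transcript and N87 held almost only IRS1.

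Under the targeted drug IRS2 was lower in A549 and H3122 and higher in A375 and PC9. H3122 libraries were at 44.2, 44.4 and 46.8 CPM in DMSO and at 13.8, 13.7 and 13.1 CPM after 48 h of crizotinib, a log2 change of -1.73 ± 0.22. At 7 days of crizotinib they were at 92.7, 95 and 86.1 CPM, above DMSO, and 2.75 ± 0.21 from 48 h. The low level at 48 h was thus the lowest of the H3122 arms and the 7-day level the highest.

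A549 libraries were at 281, 269 and 291 CPM of IRS2 in DMSO and 85, 84.8 and 93 CPM after 48 h of trametinib, a change of -1.68 ± 0.27. At 7 days they were at 139, 47 and 50.7 CPM, the first value being that of replicate 1. In A375 IRS2 was at 626, 608 and 591 CPM in DMSO, 1304, 1071 and 1154 CPM after vemurafenib (0.95 ± 0.077) and 1437, 1629.9 and 1334 CPM at 7 days. PC9 stood 0.39 ± 0.084 above DMSO after erlotinib, and the RT112 libraries of the 2 arms overlapped.

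Replicate 1 was the highest of the 3 libraries for IRS2 in 12 of the 18 groups that hold a replicate 1, and for IRS1 also in 12. Across 11871 genes the median is 6 groups, and 2.38% of the genes have as many as 12. Replicate 1 was also the highest for IGFBP3 in 11 groups (4.77% of genes have as many) and for INSR in 10 (9.39%). The remaining members ran from 3 groups (IGF1R) to 9 (IGFBP6). IRS2 was at 139, 65 and 57.4 CPM in the A549 combination and at 44.9, 21.7 and 23.4 CPM in the H3122 combination, with replicate 1 first in both. The IRS2 change from crizotinib alone to the combination in H3122 was 1.15 ± 0.23 with all libraries and 0.73 without replicate 1. In A549 the IRS2 change from 48 h to 7 days was -0.14 ± 0.30 with replicate 1 and -0.84 without it, and that of the combination was -0.01 ± 0.28 with it and -0.51 without it. What sets replicate 1 apart was not tested.

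IRS1 followed another order of lines under the targeted drug. It was lower after lapatinib in N87, 95.5, 99.7 and 94.2 CPM against 159, 159 and 160.1 CPM in DMSO (-0.72 ± 0.045), and after erlotinib in PC9 (-0.60 ± 0.051). It was higher after trametinib in A549 (0.56 ± 0.055) and after crizotinib in H3122 (0.31 ± 0.11). A549 at 7 days had the highest IRS1 of any group, 331, 309 and 322 CPM, 1.00 ± 0.054 above 48 h.

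With THZ1 added to the targeted drug, IRS1 was lower than with the drug alone in 5 lines and higher in A375, and libraries overlapped in none of the 6. RT112 had the largest difference: 29.5, 24.4 and 27.4 CPM in the combination against 107, 83.8 and 86.6 CPM with BGJ398 alone, a change of -1.77 ± 0.12. THZ1 alone gave 60.5, 56 and 62.7 CPM there, between the combination and DMSO (117, 96.5 and 91.2 CPM). The other lower values were -0.73 ± 0.11 in H3122, -0.60 ± 0.049 in N87, -0.34 ± 0.055 in A549 and -0.26 ± 0.054 in PC9, and A375 stood at 0.88 ± 0.12.

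**Figure D3:**
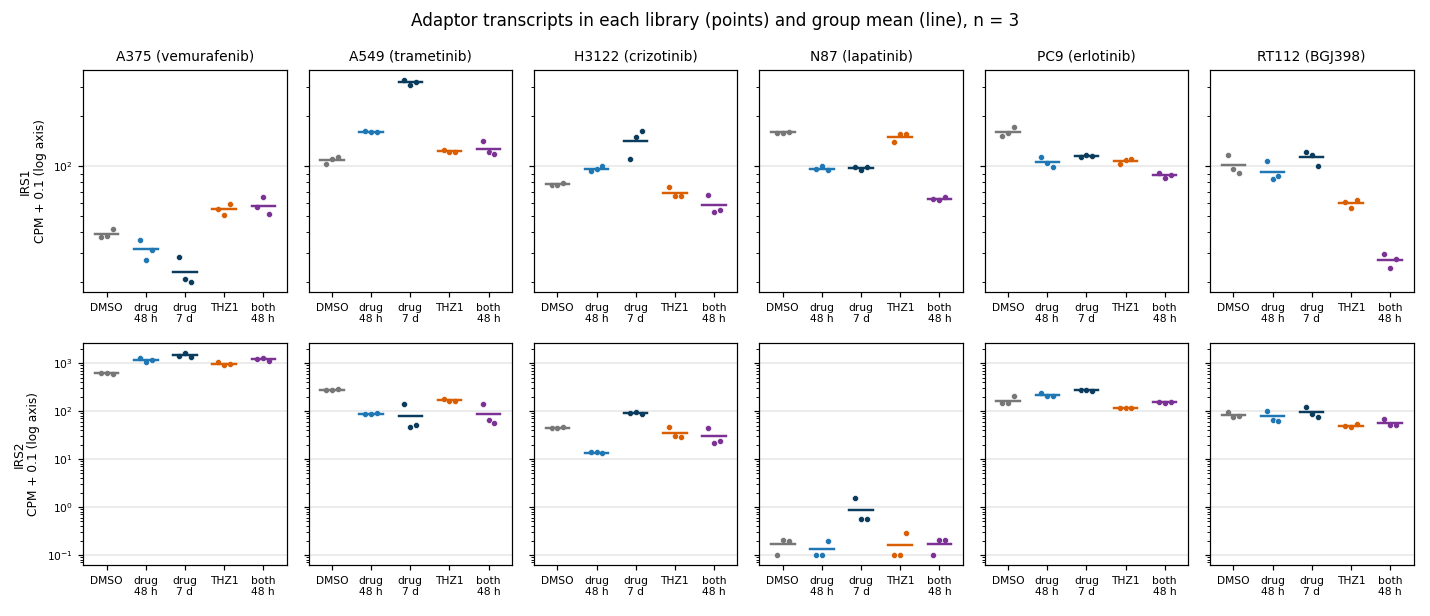
CPM of IRS1 (top) and IRS2 (bottom), each with 0.1 added, on a log axis in each library (points) and as the mean of 3 libraries (line). IRS2 sits near 0 in N87 and at 591 CPM or more in all arms of A375, and its lowest H3122 group is 48 h of crizotinib. IRS1 in RT112 is lowest in the combination, below 30 CPM in all 3 libraries.

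IGF2, a ligand of both receptors, stood above 50 CPM in RT112 alone. DMSO levels of IGF2 were 387 ± 16.8 CPM in RT112, 25.5 ± 1.05 in H3122 and 3.38 ± 0.627 in N87, and below 0.4 CPM in each library of PC9, A549 and A375, which overlapped. The other ligand gene IGF1 did not exceed 1.11 CPM in any library. Among the IDs that overlap IGF2, IGF2-AS reached 0.400 CPM and INS-IGF2 0.219 CPM at most. The labels do not say that the library kit marked strand, so reads of IGF2 and of its antisense partner cannot be told apart.

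In RT112, IGF2 was at 369.7, 403 and 389 CPM in DMSO and at 115, 112 and 118 CPM after 48 h of BGJ398, a log2 change of -1.75 ± 0.053. It remained low at 7 days, 92.6, 97.7 and 88.3 CPM. The combination stood higher than BGJ398 alone, at 180.2, 156 and 172 CPM (0.56 ± 0.052), and THZ1 alone gave 279.6, 272 and 276 CPM (-0.49 ± 0.051). The 5 arms of RT112 did not overlap, with DMSO highest and 7 days lowest. In H3122 all 15 libraries lay between 15.1 and 29.3 CPM, and the arms of N87 lay between 1.07 and 4.07 CPM.

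In the 3 lines at very low levels the values rest on few reads. A375 went from 0.177, 0.167 and 0.181 CPM with vemurafenib, 4 counts in all 3 libraries together, to 1.55, 1.84 and 1.76 CPM in the combination. A549 went from 0.0764, 0.197 and 0.262 CPM in DMSO to 0.769, 0.744 and 0.921 CPM with trametinib. PC9 did not pass the count filter for IGF2.

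H19 is transcribed from the copy of the locus inherited from the mother and hosts a microRNA in its first exon. Its mature sequences are shown because H19 had the change farthest from 0 of any member, and RefSeq (GRCh38.p14) places both on chromosome 11, minus strand, at chr11:1996800-1996822 for the 5p arm and chr11:1996768-1996787 for the 3p arm. Capitals mark the seed, bases 2 to 8, which pairs with targets. The arms have different seeds, and mature microRNAs were not analysed here.
hsa-miR-675-5p: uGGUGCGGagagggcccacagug
hsa-miR-675-3p: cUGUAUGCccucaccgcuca

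H19 levels in DMSO were 3776 ± 145 CPM in A549, 749 ± 49.1 in RT112, 11.8 ± 1.47 in N87, 11 ± 0.324 in H3122, 9.72 ± 1.12 in A375 and 1.06 ± 0.236 in PC9. Among neighbours in that order only N87 and H3122 overlapped, and N87 also overlapped A375. The line with the most H19 was thus not the line with the most IGF2, and A549, with the most H19, had under 1 CPM of IGF2 in DMSO.

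A549 held the largest change of any member. H19 was at 3659, 3731 and 3938 CPM in DMSO and 2715, 2676 and 2549 CPM after 48 h of trametinib (-0.51 ± 0.049). At 7 days it was at 11.8, 6.54 and 8.01 CPM, a log2 change of -8.23 ± 0.083 from 48 h. Both THZ1 arms lay between, at 1614, 1687 and 1733 CPM alone and 1687, 1689.9 and 1629 CPM in the combination. The 7-day libraries of A549 were also the smallest of the line, at 6.38, 6.2 and 6.24 M counts. The other A549 libraries held 9.88 to 12.94 M. The part of library size in the 7-day values was not tested.

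The other lines did not share one direction at 7 days. N87 went from 7.15, 7.35 and 8.15 CPM at 48 h of lapatinib to 0.887, 0.764 and 0.941 CPM at 7 days (-3.08 ± 0.32). H3122 went up, from 8.9, 9.86 and 6.23 CPM to 43.6, 29.8 and 33.9 CPM (2.09 ± 0.15). PC9 stood at -1.62 ± 0.17 and RT112 at -0.32 ± 0.055, and the A375 libraries overlapped.

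At 48 h the targeted drug was accompanied by lower H19 in 5 lines and higher H19 in PC9. PC9 libraries were at 0.854, 1.01 and 1.32 CPM in DMSO and 9.54, 10.5 and 9.16 CPM after erlotinib, a change of 3.19 ± 0.21. A375 libraries were at 10.1, 8.45 and 10.6 CPM in DMSO and 0.531, 1.17 and 1.27 CPM after vemurafenib (-3.21 ± 0.31). RT112 was at 696, 757 and 793 CPM and 369.6, 351 and 373 CPM (-1.04 ± 0.055), so both H19 and IGF2 were lower there, the line in which both were abundant.

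THZ1 alone was accompanied by lower H19 in 5 lines, without overlap. RT112 was at 161, 172 and 170.3 CPM under THZ1 (-2.16 ± 0.058), and A549 and N87 stood at -1.17 ± 0.05 and -1.49 ± 0.23 from DMSO. A375 was at 0.507, 0.333 and 1.04 CPM (-3.74 ± 0.33), and PC9 at 0.0859, 0 and 0.157 CPM. H3122 was the exception, at 0.28 ± 0.17. Added to the targeted drug, THZ1 gave 1.98, 1.99 and 2.29 CPM in PC9, -2.22 ± 0.19 from erlotinib alone, and 122, 109 and 106 CPM in RT112, -1.70 ± 0.058 from BGJ398 alone.

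**Figure D4:**
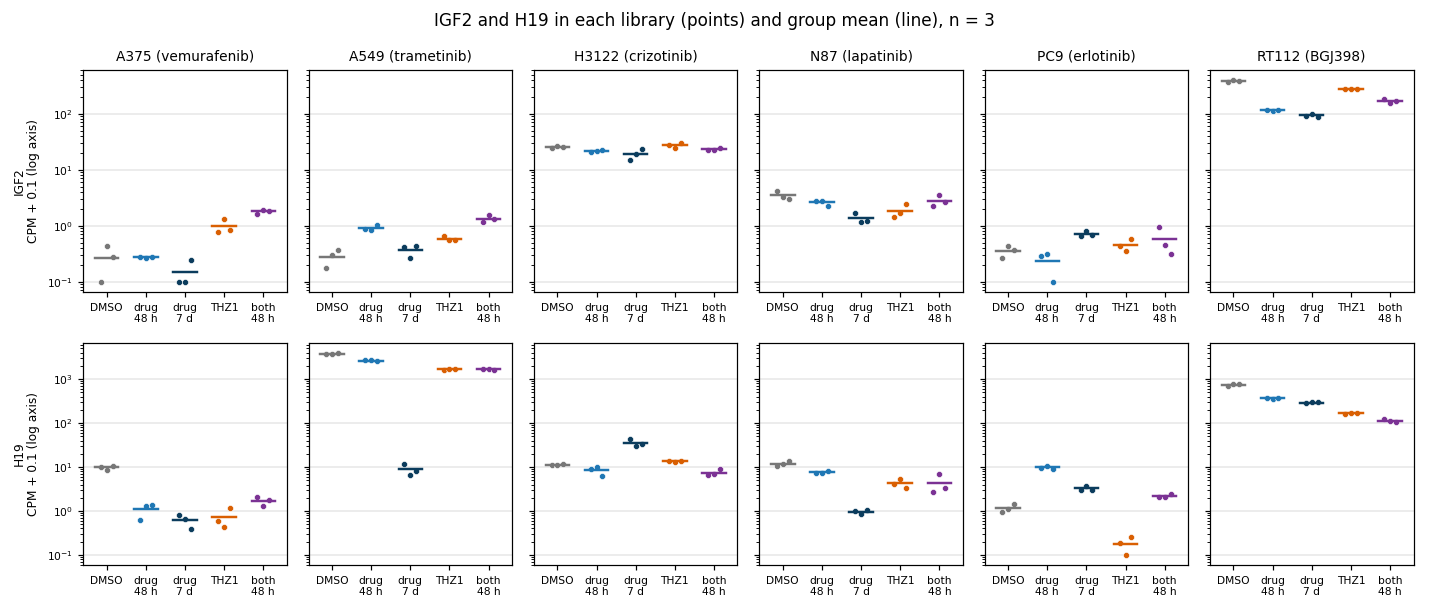
CPM of IGF2 (top) and H19 (bottom), each with 0.1 added, on a log axis in each library (points) and as the mean of 3 libraries (line). H19 in A549 goes from 2549 CPM or more at 48 h to near 9 CPM at 7 days, and H19 in PC9 is highest after 48 h of erlotinib. IGF2 is above 80 CPM only in RT112.

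The binding proteins differ in where they act: IGFBP3 carries most IGF in blood together with an acid-labile subunit, IGFBP4 mainly inhibits IGF action and is cut by the protease PAPPA, IGFBP5 binds extracellular matrix and can inhibit or potentiate IGF, and IGFBP6 prefers IGF2 over IGF1. Their promoters are shown because these 4 related genes moved in opposite directions within the same lines. Each is the 250 bases before the RefSeq start (GRCh38.p14): IGFBP3 at chr7:45921273-45921522 (minus strand), IGFBP4 at chr17:40443200-40443449 (plus strand), IGFBP5 at chr2:216695550-216695799 (minus strand) and IGFBP6 at chr12:53097417-53097666 (plus strand). The deposited values use hg19, and the promoters were matched by symbol only. Capitals mark matches to any of 6 motifs searched on both strands: the TATA box (letters TATAAA), the GC box (GGGCGG), the CAAT box (CCAAT), the AP-1 motif (TGANTCA), the FOXO motif (GTAAACA) and the ETS motif (CCGGAAG).
IGFBP3: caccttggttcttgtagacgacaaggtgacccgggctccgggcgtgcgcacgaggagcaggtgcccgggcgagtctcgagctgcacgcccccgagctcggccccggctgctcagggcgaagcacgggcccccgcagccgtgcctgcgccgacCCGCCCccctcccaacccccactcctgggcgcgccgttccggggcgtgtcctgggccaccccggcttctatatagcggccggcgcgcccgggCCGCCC
IGFBP4: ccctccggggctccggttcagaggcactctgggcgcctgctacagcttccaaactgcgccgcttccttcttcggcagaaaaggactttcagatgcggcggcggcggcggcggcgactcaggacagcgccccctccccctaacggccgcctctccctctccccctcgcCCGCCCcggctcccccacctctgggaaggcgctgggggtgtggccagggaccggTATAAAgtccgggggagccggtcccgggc
IGFBP5: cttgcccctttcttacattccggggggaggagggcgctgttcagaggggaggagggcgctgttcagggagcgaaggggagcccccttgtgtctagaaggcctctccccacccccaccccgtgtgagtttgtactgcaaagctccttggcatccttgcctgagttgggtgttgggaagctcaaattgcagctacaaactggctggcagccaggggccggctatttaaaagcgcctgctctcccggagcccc
IGFBP6: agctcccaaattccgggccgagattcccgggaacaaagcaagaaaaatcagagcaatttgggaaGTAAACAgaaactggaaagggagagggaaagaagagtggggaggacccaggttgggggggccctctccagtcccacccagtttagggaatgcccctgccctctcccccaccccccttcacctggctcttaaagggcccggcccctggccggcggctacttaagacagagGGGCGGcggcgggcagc

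The IGFBP3 window holds 2 GC boxes, both as the reverse complement, and that of IGFBP4 holds 1 GC box and 1 TATA box 29 to 24 bases before the start. IGFBP6 holds 1 GC box and 1 FOXO motif, 186 to 180 bases before the start, and IGFBP5 holds none of the 6. Of 35116 promoter windows of the same length, 10.7% hold the TATA box, 42.6% the GC box, 32.0% the CAAT box, 6.57% the AP-1 motif, 2.98% the FOXO motif and 8.52% the ETS motif. Of the other members with a promoter entry, IGF1R holds 2 GC boxes, INSR 4, IRS1 4 and IRS2 5 with 2 CAAT boxes, some GC boxes sharing a base in INSR and IRS2, and H19 holds none of the 6. A match is a description of the letters in the window, and binding was not measured.

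IGFBP3 was high in 4 lines. DMSO levels were 771 ± 9.49 CPM in PC9, 768 ± 41 in A549, 745 ± 48.1 in H3122 and 673 ± 42.3 in RT112, which overlapped from neighbour to neighbour, against 62.2 ± 2.43 in A375 and 54.7 ± 0.559 in N87, which did not. In PC9 it was at 777, 761 and 777 CPM in DMSO and at 6294, 6008 and 6146 CPM after erlotinib, a log2 change of 3.0 ± 0.029 and the highest IGFBP3 level of any group. In N87 it was at 55.3, 54.4 and 54.3 CPM in DMSO, 347, 327 and 317 CPM after 48 h of lapatinib (2.59 ± 0.057) and 1439, 1481 and 1326 CPM at 7 days (2.10 ± 0.05 from 48 h).

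RT112 and A549 were higher by 1.39 ± 0.055 and 0.78 ± 0.045 at 48 h. A549 then reached 5538, 6203 and 5844 CPM at 7 days (2.15 ± 0.046 from 48 h). H3122 and A375 went the other way. IGFBP3 was at 796, 738 and 701 CPM in H3122 DMSO and 210.4, 242 and 210.4 CPM after crizotinib (-1.75 ± 0.072), and A375 stood at -1.52 ± 0.12 after vemurafenib.

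THZ1 alone gave lower IGFBP3 in 5 lines and higher in RT112, without overlap, from -1.40 ± 0.072 in H3122 to 0.36 ± 0.054 in RT112. In the combination IGFBP3 was lower than with the drug alone in H3122 (-1.17 ± 0.075), N87 (-1.11 ± 0.052), A549 (-0.68 ± 0.045), PC9 (-0.58 ± 0.027) and RT112 (-0.12 ± 0.054), and higher in A375 (0.88 ± 0.12). PC9 still held 4042, 4126 and 4184 CPM in the combination, above every DMSO library of the line, and N87 held 159.8, 155 and 145 CPM. H3122 was at 104, 96.1 and 95.6 CPM, its lowest arm.

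IGFBP4 was lower after the targeted drug in all 6 lines, and no line had overlapping libraries. PC9 had the largest difference, 190.3, 204 and 188 CPM in DMSO against 34.4, 29.3 and 28.4 CPM after erlotinib, a change of -2.66 ± 0.061. N87 was at 52.2, 49.4 and 53.8 CPM and 19.97, 20.4 and 21.9 CPM (-1.32 ± 0.073). The remaining values were -0.70 ± 0.27 in RT112, where all libraries were below 3 CPM, -0.54 ± 0.061 in H3122, -0.47 ± 0.037 in A549 and -0.20 ± 0.062 in A375. IGFBP3 and IGFBP4 thus had opposite signs in PC9, N87, RT112 and A549 and the same sign in A375 and H3122.

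THZ1 alone was accompanied by higher IGFBP4 in PC9, 505, 472 and 479 CPM (1.32 ± 0.048), and by less in A375 (0.64 ± 0.061), H3122 (0.50 ± 0.06) and A549 (0.20 ± 0.037). N87 stood at -0.24 ± 0.065, and RT112 overlapped. In the PC9 combination IGFBP4 was at 192, 182 and 179.6 CPM, 2.58 ± 0.061 above erlotinib alone and overlapping DMSO. The combination stood at 0.65 ± 0.061 in H3122 and 0.63 ± 0.061 in A375 against the drug alone, and at -0.20 ± 0.038 in A549 and -0.93 ± 0.33 in RT112. At 7 days of trametinib A549 had the highest IGFBP4 of any group, 2176, 2302 and 2299.8 CPM, against 814, 807 and 818 CPM at 48 h (1.47 ± 0.038).

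Levels of IGFBP4 in DMSO ran from 1129.7 ± 28.2 CPM in A549 through A375 (243 ± 5.31), PC9 (194 ± 8.62), H3122 (144 ± 3.74) and N87 (51.8 ± 2.23) to RT112 (1.67 ± 0.299), with no overlap between neighbours.

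IGFBP5 was present in DMSO in A375 (91.5 ± 1.34 CPM) and PC9 (37.4 ± 4.17 CPM) and was near 1 CPM or below in the rest: 1.04 ± 0.207 in RT112, 0.433 ± 0.045 in N87, 0.237 ± 0.118 in H3122 and 0.197 ± 0.109 in A549, the last pair overlapping. The targeted drug gave higher levels in 3 lines. RT112 was at 1.16, 0.799 and 1.15 CPM in DMSO and 27.5, 26.1 and 31 CPM after BGJ398, a change of 4.75 ± 0.16. A375 was at 90.01, 91.9 and 92.6 CPM and 575, 548 and 572 CPM (2.62 ± 0.088), and PC9 at 32.6, 39.8 and 39.9 CPM and 169, 152 and 169 CPM (2.13 ± 0.071).

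With THZ1 added, the level under the drug was not reached in A375 and RT112. RT112 combination libraries were at 0.4, 0.748 and 1.23 CPM, -5.13 ± 0.17 from BGJ398 alone and overlapping DMSO. A375 combination libraries were at 32.3, 24.5 and 29.5 CPM, -4.29 ± 0.096 from vemurafenib alone and below every DMSO library. PC9 kept 94.9, 92.3 and 103 CPM, -0.76 ± 0.064 from erlotinib alone and above DMSO.

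THZ1 alone gave -0.89 ± 0.098 in A375, -1.24 ± 0.092 in PC9 and -1.60 ± 0.40 in RT112. In A549 all 3 THZ1 libraries were at 0, which allows up to 0.0904 CPM over the group (3 counts), and DMSO libraries were at 0.306, 0.197 and 0.0874 CPM, so no fold is given. This limit covers counting error only.

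At 7 days IGFBP5 separated the lines. A549 went from 0.171, 0.633 and 0.614 CPM at 48 h of trametinib to 117, 114 and 116 CPM at 7 days, a log2 change of 7.93 ± 0.15. IGFBP5 was above 1 CPM in A549 only in the 7-day arm. It passed the count filter of that line through that arm and so had to differ, and the 48 h level rests on few reads. RT112 went further up, to 112, 123 and 124 CPM (2.08 ± 0.087), and PC9 stood at 0.45 ± 0.06. A375 went down, to 188, 193 and 175 CPM (-1.60 ± 0.082), still above DMSO. In A549, therefore, H19 was at about 9 CPM in the same 3 libraries in which IGFBP5 was above 110 CPM, beside higher IGFBP3 and IGFBP4. Over the same A549 arms the summed fibroblast and endothelial list was at 90.1 to 95.5 CPM at 48 h and 183 to 252 CPM at 7 days. Nearly all of it was COL1A1 (182 to 251 CPM at 7 days), with COL3A1 and DCN at a median of 0 CPM. The summed liver list was at 554 to 652 CPM at 48 h and 277 to 300 CPM at 7 days, and the part of these lists in the result was not tested. H3122 and N87 had no IGFBP5 library above 1 CPM in any arm.

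The ratio of the IGFBP3 level to the IGFBP5 level, each divided by exon length, was 1.61 ± 0.0857 in A375 DMSO and 0.0914 ± 0.00629 after vemurafenib. In PC9 both genes were higher after erlotinib and the ratio went from 49.1 ± 6.16 to 89 ± 3.83. In RT112 it was 149 ± 13.7 at 48 h of BGJ398 and 56.9 ± 6.37 at 7 days.

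IGFBP6 was highest in N87 (273 ± 5.32 CPM in DMSO), followed by PC9 (142 ± 3.41), A375 (86.2 ± 3.1), A549 (49.1 ± 2.67), RT112 (20.5 ± 1.38) and H3122 (9.17 ± 1.18), with no overlap. It was lower at 7 days than at 48 h in A375, RT112 and H3122. A549 (0.49 ± 0.059) and PC9 (0.13 ± 0.043) were higher at 7 days, and the N87 libraries overlapped. A375 was at 89.3, 86 and 83.1 CPM in DMSO, 58.8, 60.8 and 69.5 CPM after 48 h of vemurafenib and 9.9, 9.6 and 8.02 CPM at 7 days, a change of -2.77 ± 0.11 from 48 h. RT112 went from 22.1, 23.1 and 22.3 CPM to 9.59, 8.63 and 8.82 CPM (-1.32 ± 0.088) and H3122 from 3.58, 3.87 and 4.12 CPM to 2.28, 1.77 and 1.61 CPM (-1.03 ± 0.21).

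At 48 h IGFBP6 was higher after the drug in PC9, 283, 259.8 and 268 CPM against 141, 146 and 139 CPM (0.93 ± 0.045), and the combination returned it to 141, 139.6 and 139.5 CPM (-0.95 ± 0.045). H3122 was lower after crizotinib (-1.25 ± 0.17). A375 (-0.43 ± 0.084), N87 (-0.41 ± 0.053) and A549 (-0.22 ± 0.056) were also lower after their drug, and RT112 was higher (0.14 ± 0.079), without overlap. THZ1 alone gave higher IGFBP6 in 5 lines, up to 0.91 ± 0.051 in A549, and lower in PC9 (-0.33 ± 0.046), without overlap in any line. In A375 the combination stood 1.00 ± 0.079 above vemurafenib.

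**Figure D5:**
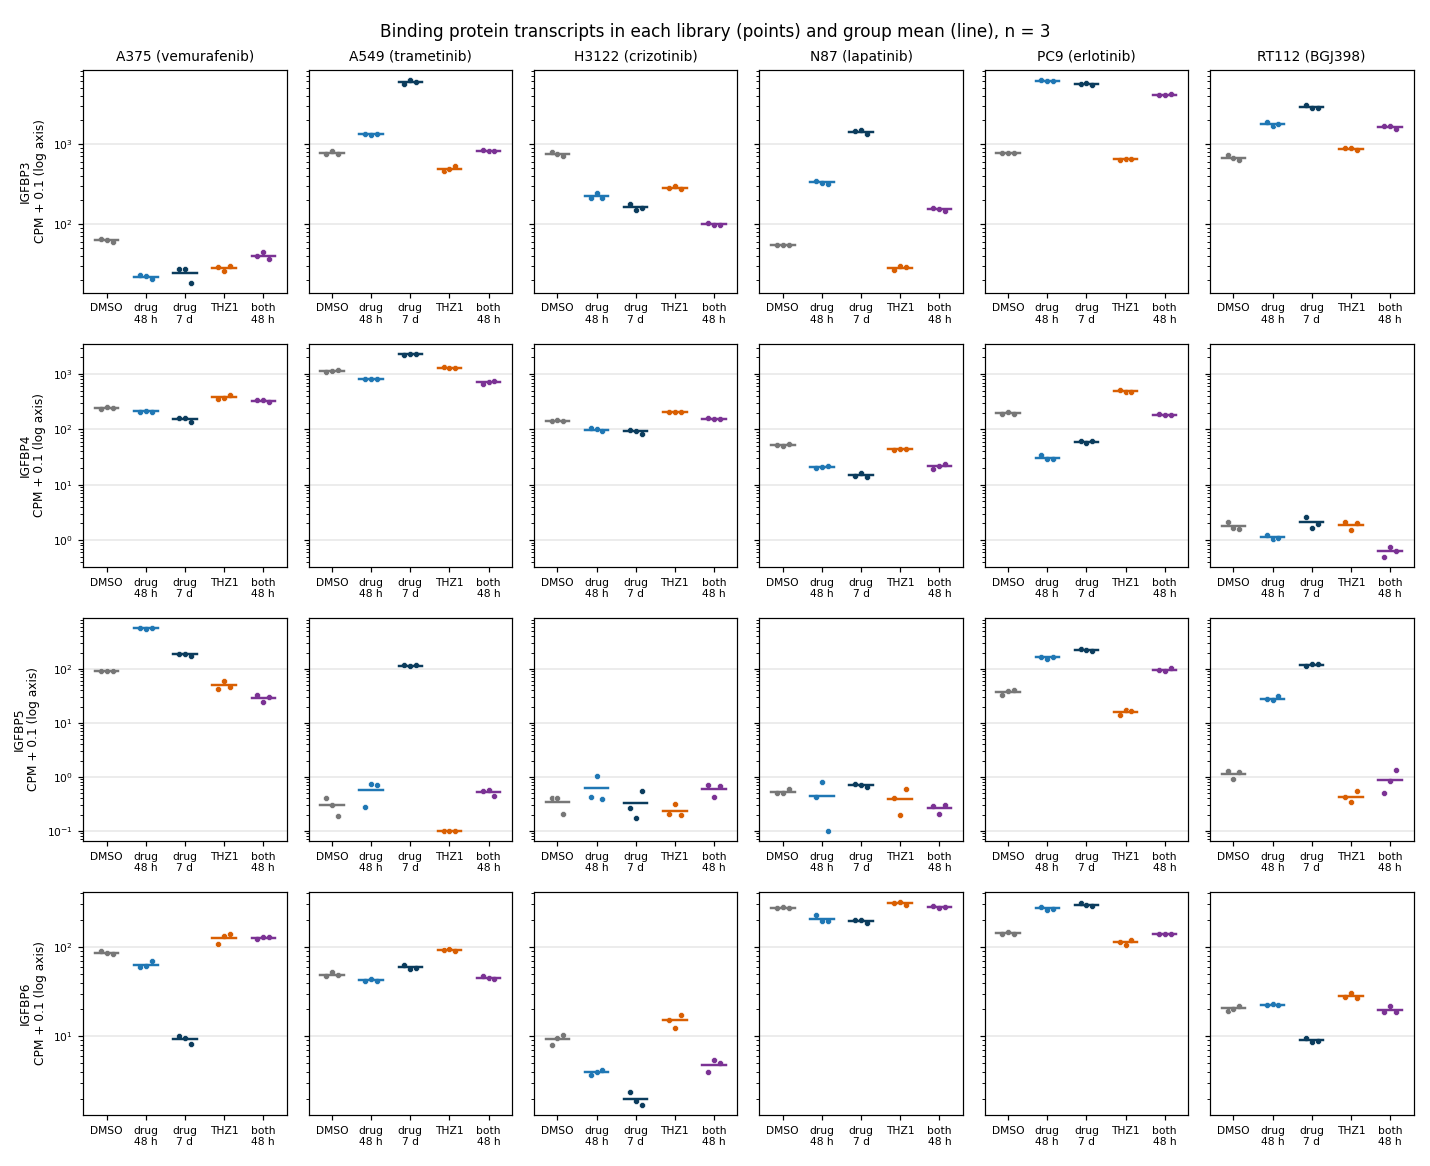
CPM of the 4 binding proteins, each with 0.1 added, on a log axis in each library (points) and as the mean of 3 libraries (line), for 5 arms in 6 lines. IGFBP5 in RT112 sits near 1 CPM in DMSO and in the combination and above 25 CPM after the targeted drug alone. IGFBP4 is lower after 48 h of the targeted drug than in DMSO in each line.

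By size, members were counted where the change was 2-fold or more and the libraries of the 2 groups did not overlap. For the targeted drug at 48 h these were 4 of 10 members tested in A375 (background 26.3% of all genes tested), 2 of 10 in A549 (30.3%), 3 of 9 in H3122 (8.71%), 2 of 8 in N87 (23.0%), 4 of 9 in PC9 (20.4%) and 4 of 10 in RT112 (23.3%). For the combination against the drug they were 3 of 10 in A375 (24.9%), 0 of 10 in A549 (4.96%), 2 of 9 in H3122 (4.14%), 1 of 8 in N87 (10.1%), 2 of 9 in PC9 (18.3%) and 3 of 10 in RT112 (15.8%). The members were chosen on these values, so nothing is read from the counts. A member that passed the count filter only through an arm where it was high had to differ.

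Across the 6 lines, with the line as the replicate, 7 members passed the filter of 1 CPM in at least 3 libraries of every line. IRS2, IGF2 and IGFBP5 did not. For the targeted drug at 48 h the fitted log2 changes were 0.41 ± 0.19 for INSR, 0.14 ± 0.26 for IGF1R, -0.11 ± 0.30 for IRS1, -0.48 ± 0.85 for H19, 0.55 ± 0.70 for IGFBP3, -0.82 ± 0.41 for IGFBP4 and -0.11 ± 0.42 for IGFBP6. For H19 the sign turned without A375, for IGF1R without N87 and for IGFBP6 without H3122. For THZ1 the values were -1.80 ± 0.85 for H19, -0.85 ± 0.66 for IGFBP3, 0.52 ± 0.42 for IGFBP6, -0.50 ± 0.19 for INSR and 0.50 ± 0.40 for IGFBP4, with IRS1 and IGF1R nearer 0. None of the 7 was called in any of the 4 comparisons by edgeR or by DESeq2, and 1, 2, 0 and 0 of them had an unadjusted p under 0.05 for the targeted drug, THZ1, the combination and 7 days. Of all 11871 genes, 19% rose and 18.2% fell for the targeted drug (edgeR, adjusted p under 0.05). For THZ1 0.0590% rose and 0.0168% fell, for the combination 3.97% and 4.32%, and for 7 days 0% and 0%. No share of all genes is given for the unadjusted p, so those counts have nothing to be set against. The members were chosen on these data, and nothing is read from either kind of count. The members' standard errors here rest on 1 spread between lines for each gene, fitted over all 5 arms together. They do not measure how far the lines differ in a single comparison. For IGF1R the standard error was 0.26 for the targeted drug and 0.25 for THZ1. The within-line changes of IGF1R ran from -1.49 to 0.73 for the drug and from -0.29 to 0.18 for THZ1.

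The rest of the pathway was read from 4 lists of 61 genes, of which 60 were found and 38 passed the filter across lines. The lists were chosen with earlier results of these data known, so their counts and adjusted p are a description. For the targeted drug at 48 h 8 of the 38 genes rose and 5 fell (edgeR quasi-likelihood test, Benjamini-Hochberg adjusted p under 0.05), where 19% of all 11871 genes rose and 18.2% fell. The median log2 change was 0.054 over the 38 genes and 0.056 over all genes. No share of all genes is given for the unadjusted p. List counts at that p therefore have nothing to be set against, and nothing is read from them.

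Among PI3-kinase, AKT, mTOR and FOXO genes 6 of 19 rose and 2 fell, with a median log2 change of 0.23. Without the count filter the rises of TSC2, TSC1 and PDPK1 were lost (adjusted p = 0.103, 0.0892 and 0.492, edgeR). That of PDPK1 was lost too with 2 arms fitted, and without A375, A549, N87, PC9 or RT112 (adjusted p 0.0726 to 0.191, edgeR). The fall of PIK3CB was lost with 2 arms fitted, and without A375, H3122, N87 or PC9 (adjusted p 0.0738 to 0.11, edgeR). FOXO4, a transcription factor held back by AKT, rose by 1.29 ± 0.18 on the log2 scale (adjusted p = 8.7e-05, edgeR), in 6 of 6 lines. PIK3R1, the main regulatory subunit of PI3-kinase, rose by 1.05 ± 0.30 (adjusted p = 0.00945, edgeR) in 6 of 6 lines, and its adjusted p was 0.0509 without RT112. FOXO3 rose by 0.65 ± 0.15 (adjusted p = 0.00227, edgeR) in 6 of 6 lines. EIF4EBP1, a repressor of cap-dependent translation that mTOR switches off, fell by 1.75 ± 0.34 (adjusted p = 5.97e-04, edgeR) in 6 of 6 lines. The count of lines in a direction, here and below, uses the same lines as the call and is not separate support. No share of all genes is given for it.

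Among other adaptors and brakes 2 of 9 rose and none fell (3 of 9 had an unadjusted p under 0.05, and DESeq2 called 2 up and 0 down). GAB1, a docking protein for PI3-kinase and SHP2, rose by 1.09 ± 0.34 (adjusted p = 0.0144, edgeR) and SH2B1, an adaptor of the insulin receptor, by 0.53 ± 0.18 (adjusted p = 0.0259, edgeR), both in 6 of 6 lines. The SH2B1 call was lost without A375, A549, N87 or PC9, with adjusted p between 0.051 and 0.109 (edgeR). It was also lost without the count filter (adjusted p = 0.139, edgeR).

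Among genes that bind IGF2 mRNA, regulate the IGF2 and H19 locus or are imprinted growth genes, none of 8 rose and 3 fell. HMGA2, a chromatin protein that activates IGF2BP2, fell by 1.81 ± 0.47 (adjusted p = 0.00505, edgeR) in 6 of 6 lines. MEST, an imprinted gene, fell by 0.89 ± 0.26 (adjusted p = 0.00998, edgeR), a call lost without RT112 (adjusted p = 0.0777). CTCF, which binds the imprinting control region between IGF2 and H19, fell by 0.26 ± 0.085 (adjusted p = 0.0179, edgeR). The CTCF call was lost without A375, A549 or PC9 (adjusted p between 0.0544 and 0.0771) and with only the 2 arms fitted (adjusted p = 0.0884, edgeR). Of the other ligands, receptors and binding proteins, IGFBP2 and IGF2R passed the filter and neither was called (unadjusted p under 0.05 for 0 of the 2, DESeq2 0).

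THZ1 alone gave no call among the 38 genes (edgeR, 4 with an unadjusted p under 0.05, DESeq2 0), where 0.0590% of all genes rose and 0.0168% fell. For the combination against the drug none rose and 2 fell (9 with an unadjusted p under 0.05, DESeq2 1 up and 3 down), where 3.97% of all genes rose and 4.32% fell. That split was 471 genes up and 513 down, and without TMM scaling it was 636 up and 383 down. SOCS3, a feedback inhibitor of cytokine and insulin receptors, fell by 1.25 ± 0.35 (adjusted p = 0.0297, edgeR) and FOXO4 by 0.62 ± 0.18 (adjusted p = 0.0353, edgeR), both in 6 of 6 lines. Both calls were lost without A375, PC9 or RT112 and that of FOXO4 also without A549, with adjusted p between 0.0635 and 0.156. With only the 2 arms fitted both were also lost (adjusted p = 0.0729 for FOXO4 and 0.0804 for SOCS3, edgeR). The FOXO4 call was lost without the count filter too (adjusted p = 0.0771, edgeR). At 7 days against 48 h no list gene was called (1 with an unadjusted p under 0.05, DESeq2 0), and 0% of all genes rose and 0% fell. By DESeq2, 89 of all genes rose and 105 fell for THZ1. It called 691 up and 792 down for the combination, and 6 up and 20 down for 7 days.

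The genes most like each member were found by Pearson correlation over the 30 group means of log2 CPM after the mean of each line was taken off, among 11871 genes. The nearest were GPRC5A (r = 0.836) and HINT3 (0.835) for IGF1R, PHF21A (0.855) and CYP2D6 (0.853) for INSR, PEX5 (0.814) and MFSD10 (0.812) for IRS1, and PDP2 (0.743) and C17orf49 (0.734) for H19. For the binding proteins they were CAB39L (0.870) and UPRT (0.838) for IGFBP3, ITGB1BP1 (0.835) and RNF8 (0.813) for IGFBP4, and MICU2 (0.785) and TM4SF1 (0.770) for IGFBP6. By Spearman correlation 6 of these 14 genes were not among the 2 nearest, and CDK14 (rho = 0.789) and PDLIM5 (0.774) came first for IGF1R and CYP2D6 (0.887) and ABCD4 (0.879) for INSR. The others were USP3 (0.721) for H19, SMURF2 (0.827) for IGFBP4 and TMEM41A (0.788) for IGFBP6, each in the second place. Among the members themselves, over the same 30 means, the pairs with r farthest from 0 were INSR with IGFBP4 (-0.654), INSR with IGFBP3 (0.541), IGF1R with IGFBP6 (0.494) and IGFBP3 with IGFBP4 (-0.415). These values share libraries and depth and are given as a description.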

How the data were processed

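RNA-seq libraries of 6 cell lines were analysed in 30 groups of 3, taken from the sample titles. Per the submitters' processing notes, Bowtie2 2.2.1, RSEM 1.2.12 and hg19 were used. The authors deposited expected counts per gene, of which 7.83 to 13.75% per library are not whole, and these were rounded to whole numbers here. Their gene annotation is not given in the labels. Symbols and exon lengths came from GENCODE 29. No spike-in is named, so CPM is relative to all other transcripts.

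The 15 libraries of a line shared 1 edgeR 4.0.16 fit (R 4.3.3, quasi-likelihood, TMM, filterByExpr). Across lines the 30 sums of counts by line and arm were fitted with line as a term, for the 11871 genes that reached 1 CPM in 3 or more libraries of each line. The threshold was 0.05 on p after Benjamini-Hochberg adjustment over all genes tested. The fits were tested on simulated data. Errors of log2 changes, called standard errors here, come from the quasi-likelihood fit. For a large change with few counts in a group they can be smaller than counting error alone. Examples in A549 at 7 days are IGFBP5 (7.93 ± 0.15) and H19 (-8.23 ± 0.083, from 160 counts at 7 days). CPM values use the TMM factors of the line's own libraries. Alternatives were DESeq2 1.42.0, other scaling, no filter, fewer arms, a replicate block and leaving out each library or line. A further refit left out the libraries taken as standing apart, replicate 1 of RT112 and of H3122 at 7 days.

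The members and pathway lists were chosen with earlier results of these data known. All members are named. Of the pathway genes, those called with the largest absolute log2 change are named, at most 4 a list and comparison. Other called genes are named only where their call was lost under another setting. The 2 genes most correlated with each member are also named. Same-numbered libraries were not treated as pairs.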

Additional observations from a re-analysis of the deposited data

Results flagged for a closer look

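Among the 6 lines, 1 line stood far from the other 5 in 3 of 40 comparisons of a member. Chance alone marks about 1 in 20 such comparisons for genes picked without regard to their values. The members were chosen by their levels in these same lines and arms. That rate therefore cannot be applied to them, and nothing is read from the count. The changes given below are differences of mean log2 CPM and can differ slightly from the fitted changes. IGF1R under the targeted drug at 48 h was at -1.49 in A375 and between 0.013 and 0.73 in the other lines. IGF1R at 7 days against 48 h was at 0.33 in A549 and between -0.38 and -0.17 in the other lines. IGF2 at 7 days against 48 h was at 1.40 in PC9 and between -1.13 and -0.19 in the other lines. IGF2 did not pass the count filter in PC9. The PC9 value rests on 4 counts at 48 h and 25 counts at 7 days over 3 libraries each.

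Lines also moved in opposite directions under the same comparison, with every library of a line on the same side. The differences between lines were not tested. H19 under the targeted drug at 48 h stood as high as 3.01 in PC9 and as low as -3.14 among A375 and RT112. H19 at 7 days against 48 h stood at 2.08 in H3122 and as low as -8.25 among A549, N87 and PC9. IGFBP3 under the targeted drug at 48 h reached 2.99 among N87, PC9 and RT112 and -1.75 among A375 and H3122. IGFBP5 at 7 days against 48 h reached 7.56 among A549 and RT112 and stood at -1.61 in A375. In A549 IGFBP5 passed the count filter only through the 7-day arm. Each of these lines received a different drug.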

How the results depend on the processing

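For the members, 2938 of 3061 recomputed log2 changes moved by less than the spread between replicates and 123 moved by more, 68 of these under library totals without TMM scaling, which shifts the median change of all genes by up to 0.16. The highest group means without TMM were 545 CPM for IGF1R, 80.6 for INSR, 309 for IRS1, 362 for IGF2, 5716 for IGFBP3, 2179 for IGFBP4 and 537 for IGFBP5. Across lines the number of genes called for THZ1 was 9. It was 692 with only the 2 arms fitted, 194 with DESeq2 and 0 to 6 when 1 line was left out. For the combination it was 984. It was 438 without the filter, 195 with 2 arms, 1483 with DESeq2 and 215 to 1165 when 1 line was left out, with 256 without A375, 215 without PC9 and 237 without RT112. For 7 days it was 0, and 26 with DESeq2. Of 180 recomputed pathway calls 37 were lost, 25 of them with 1 line left out. Without the libraries taken as standing apart, 4 member changes moved by more than the spread between replicates and 73 did not. In that refit 1 pathway call was lost. The cause was not tested. Same-numbered libraries correlated at -0.113 to 0.132 outside RT112 and 0.0052 to 0.354 in RT112, where replicate 1 gave 0.331, 0.214 and 0.354. In 0 of the 8 comparisons with 3 shared numbers was every value above 0.1. With a replicate block, the number of genes called within a line was 0.881 to 1.01 times that without it over 24 comparisons, and the largest move of a member's log2 change was 0.34 (IRS2 in A549 at 7 days). H19 under vemurafenib in A375 was at -3.32 with the block.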
